A study of Homo sapiens with 6 samples.

Results

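The genes described here are 44 regulators of pre-mRNA splicing, out of 63677 gene identifiers counted, and they were chosen by name from the known families. They comprise 13 SR proteins (SRSF1 to SRSF11 with TRA2A and TRA2B), 22 heterogeneous nuclear ribonucleoproteins (hnRNPs, with SYNCRIP and PTBP1 to PTBP3), 6 kinases of SR proteins (CLK1 to CLK4, SRPK1 and SRPK2) and 3 large serine/arginine-rich proteins of nuclear speckles (SON, SRRM1 and SRRM2). The question was whether their mRNA levels differed in cells in which RBM3, a gene for a cold-inducible RNA-binding protein, had been silenced.

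T24 is a line of human bladder cancer cells of grade 3. One group, siRBM3, received siRNA against RBM3 and the other, control, a negative control siRNA, in each case for 4.5 h at 25 nM, and all cells recovered overnight before harvest. Polyadenylated RNA was sequenced from 3 libraries in each group, numbered 1, 3 and 5 in control and 3, 4 and 5 in siRBM3. The values are reads counted per gene, given below as CPM, counts scaled to a common library size, and nothing in the labels says that the 3 libraries of a group came from separate cultures, so that p-values measure the spread between these samples only.

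SR proteins carry RNA recognition motifs and a tail rich in arginine and serine, and most of them bind exonic enhancers and promote the inclusion of exons. The hnRNPs coat nascent transcripts and often silence splice sites, although many act in both ways depending on where they bind. The CLK and SRPK kinases phosphorylate the tails of SR proteins, SRPK1 and SRPK2 mainly in the cytoplasm and the CLKs in the nucleus, whereas SON and SRRM2 hold together the speckles in which splicing factors are stored.

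Library totals ranged from 23603992 to 45098612 counts, and siRBM3 replicate 3 was the deepest library. Mitochondrial genes took 1.63% to 2.86% of the counts in control and 2.33% to 9.40% in siRBM3, again with replicate 3 the highest in each group. The epithelial keratin KRT7 was at 3099 to 3240 CPM in control and 2354 to 2542 CPM in siRBM3, lower in all 3 siRBM3 libraries (log2 fold change -0.38, adjusted p 0.170 by edgeR and 0.00932 by DESeq2). Of 7 tested epithelial and urothelial markers, 3 lay above 0 and 4 below. KRT8 was also lower without overlap (-0.37, edgeR adjusted p 0.309), and KRT18 and KRT19 were at -0.18 and -0.14 with overlap. EPCAM was higher without overlap (0.24). So was GATA3, at 9.31 to 12.5 CPM in control and 13.6 to 14.3 CPM in siRBM3 (0.37, edgeR adjusted p 0.3535). UPK2 was at 1.13 to 1.86 CPM with overlap. CDH1 and KRT5 were too low to test, and UPK3A was at or near 0, as was the leukocyte marker PTPRC. The part of these marker differences in the levels below was not tested. The silenced gene itself, RBM3 (chrX:48432837-48439550 on GRCh37), measured 225, 368 and 301 CPM in the control libraries (replicates 1, 3 and 5, the order used throughout) and 54.1, 90.1 and 58.4 CPM after silencing (replicates 3, 4 and 5). All siRBM3 libraries lay below all control libraries, with a log2 fold change of -2.14 (SE 0.24), an edgeR adjusted p of 0.0822 and a DESeq2 adjusted p of 3.73e-14. An exact two-sided permutation test gave p = 0.1, the smallest that 3 libraries against 3 allow.

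Of the 44 genes, 3 are read with a limit. HNRNPA1, one of the best known splicing silencers (chr12:54673977-54680872), and SRSF8, an intronless SR gene (chr11:94800083-94804388), were listed at 0 counts in all 6 libraries, and SRSF10, an SR protein that acts as a repressor when dephosphorylated (chr1:24290837-24307417), had 635 counts over all libraries together. To see how much of each mRNA a read of 75 bases could place, every window of that length in the canonical transcript was searched in the genome on both strands. For SRSF10, 84.2% of the windows also occurred elsewhere, and 83.8% occurred on the scaffold GL000191.1. For HNRNPA1 the share was 36.4%, spread over retrocopies, whereas 63.6% of its windows were found nowhere else. For SRSF8 the share was 1.49%.

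One window of each of the first 2 cases is shown because it makes plain that a read from it has no single place. Both lie in coding exons and are printed in lower case throughout, as every base is shared. The SRSF10 window is at chr1:24297820-24297894 on the minus strand and recurs at GL000191.1:41163-41237. The HNRNPA1 window is at chr12:54676367-54676441 on the plus strand and recurs in the retrocopy HNRNPA1L3 at chr16:51680322-51680396, one of the 2 other places that hold it, all on GRCh37.
SRSF10: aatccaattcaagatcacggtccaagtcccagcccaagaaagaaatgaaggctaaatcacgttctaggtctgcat
HNRNPA1: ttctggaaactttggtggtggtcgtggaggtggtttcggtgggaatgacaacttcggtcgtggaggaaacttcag

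The table lists 76 named copies of HNRNPA1, which together held 2429 counts, most of them on HNRNPA1L2 with 1217. HNRNPA1L2 averaged 6.67 ± 0.98 CPM in control and 7.39 ± 1.22 CPM in siRBM3 (SD, n = 3), and HNRNPA1L3 averaged 5.17 ± 0.44 and 5.74 ± 1.01 CPM. Neither retrocopy differed beyond the spread between libraries, with log2 fold changes of 0.15 (SE 0.19) and 0.16 (SE 0.19). The counts of 0 are given as listed, and they are not read here as a measure of HNRNPA1 or SRSF8 mRNA. For SRSF8, 98.5% of the windows were found nowhere else. Whether either 0 reflects absent mRNA or the counting was not tested. The named copies of the other members held at most 177 counts, for HNRNPK.

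All members but HNRNPA1 and SRSF8, 42 genes, passed the filter on low counts, so that SRSF10 is counted among them below. They took 0.818% to 0.948% of all counts in each library, of which hnRNPs made up the larger part, at 0.573% ± 0.034 in control and 0.550% ± 0.048 in siRBM3 (SD, n = 3), against 0.214% ± 0.018 and 0.200% ± 0.015 for SR proteins.

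Levels were compared between genes as CPM per kilobase of merged exons, in control libraries. The hnRNPs reached from PTBP2, the neuronal polypyrimidine tract binding protein, at 0.867 ± 0.123, to HNRNPF, a protein that binds G-rich sequence, at 99.3 ± 3.3 CPM per kilobase (SD, n = 3). HNRNPF, HNRNPAB at 97.4 ± 3.5 and HNRNPK at 96.4 ± 5.0 CPM per kilobase lay within their spread of each other, and the order depends on the length used. Over the longest transcript HNRNPK was the highest at 188, before HNRNPM at 135, HNRNPA2B1 at 120.0 and HNRNPF at 118 CPM per kilobase. Among SR proteins the highest was SRSF7 at 56.0 ± 16.2 CPM per kilobase, which its spread did not separate from SRSF2 at 55.1 ± 9.7, SRSF3 at 54.7 ± 12.1 or SRSF6 at 54.6 ± 11.6. Over the longest transcript SRSF3 came first at 92.1 CPM per kilobase, before SRSF5 at 81.0 and SRSF7 at 79.3.

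The median level was about the same in SR proteins and hnRNPs, at 31.6 and 30.7 CPM per kilobase, and lower in the kinases at 6.21. Among the kinases SRPK1 was at 16.2 ± 0.8 and CLK2 at 14.1 ± 2.4 CPM per kilobase, and CLK4 at 1.23 ± 0.19 and CLK3 at 1.45 ± 0.15, neither pair separated by its spread. SRRM2 reached 35.2 ± 1.0 CPM per kilobase, SRRM1 15.04 ± 1.3 and SON 13.1 ± 0.8. The value of SRSF10, 0.315 ± 0.007 CPM per kilobase, is bounded by the shared sequence described above.

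**Figure D1:**
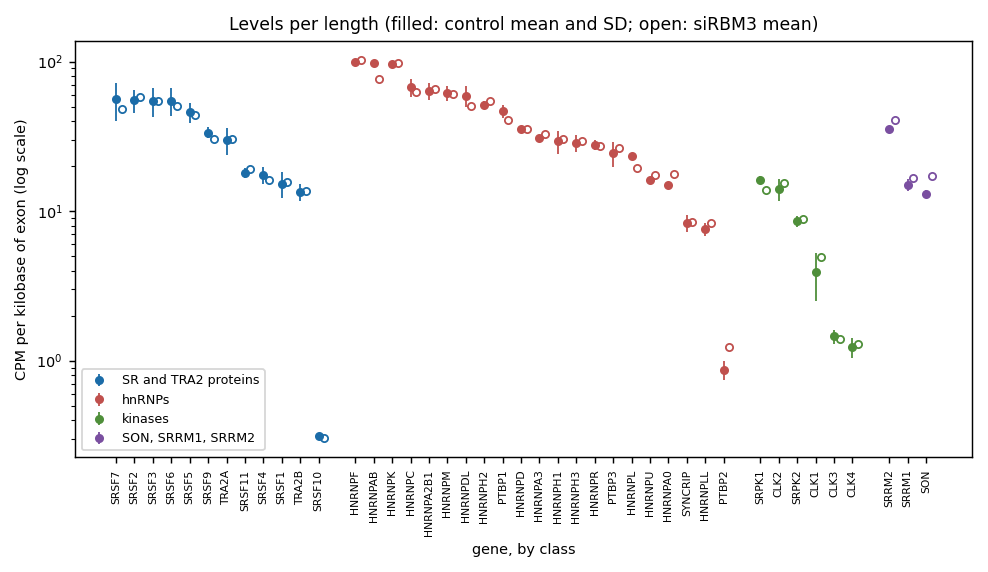
Level of each of the 42 genes as CPM per kilobase of exon on a log axis, by class. Filled points with bars are the mean and SD of the 3 control libraries and open points the mean of the 3 siRBM3 libraries. Over merged exons HNRNPF, at 99.3 CPM per kilobase, lies within the spread of HNRNPAB and HNRNPK at the top of the hnRNPs, an order that changes with the longest transcript, and SRSF10 is at 0.315.

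No member was called between the groups. At the limits of a fold change of 1.5 and an FDR below 0.01, edgeR's quasi-likelihood test called 0 of the 42 genes, where it called 0.0% of the 15099 genes tested, and DESeq2 also called 0 members, where it called 1.27% of its 12589 genes. At an unadjusted edgeR p under 0.05, 2 members were higher in siRBM3 (SON and HNRNPA0), against a background of 6.56% of all genes, and 3 were lower (HNRNPAB, HNRNPL and SRPK1), against 6.58%. These 5 genes are 11.9% of the members, and 13.1% of all genes tested passed that limit. Leaving out each library in turn gave 1 to 3 members higher, with 1 without control replicate 5 or siRBM3 replicate 3, and 1 to 3 lower, with 1 without siRBM3 replicate 3 or 4. In 4 members all siRBM3 libraries lay above all control libraries (SON, SRRM2, HNRNPA0 and HNRNPA3), where 9.98% of all genes did so, and in 3 they lay below (HNRNPAB, HNRNPL and SRPK1), where 9.93% did. The smallest adjusted p of a member was 0.176 by edgeR and 0.0591 by DESeq2, both for HNRNPAB, which was lower in 3 of 3 siRBM3 libraries at a log2 fold change of -0.34.

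The differences were small and, for most members, bounded. None of the 42 estimates exceeded a 1.5-fold difference, which 7.92% of all genes tested did, and 3.35% of the 4480 genes with a mean of at least 50 CPM. In 38 of 42 members (90.5%) the whole 95% interval of the log2 fold change lay within the 1.5-fold limits, against 48.8% of all genes and 78.7% of genes with a mean of at least 50 CPM. The members had a median of 173 CPM and all genes tested 21.1 CPM. The 4 whose interval reached past the limits were SRSF7, PTBP2, CLK1 and SON. The median log2 fold change was 0.04 over the 42 members and -0.01 over all genes, with 26 members above 0 and 16 below.

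**Figure D2:**
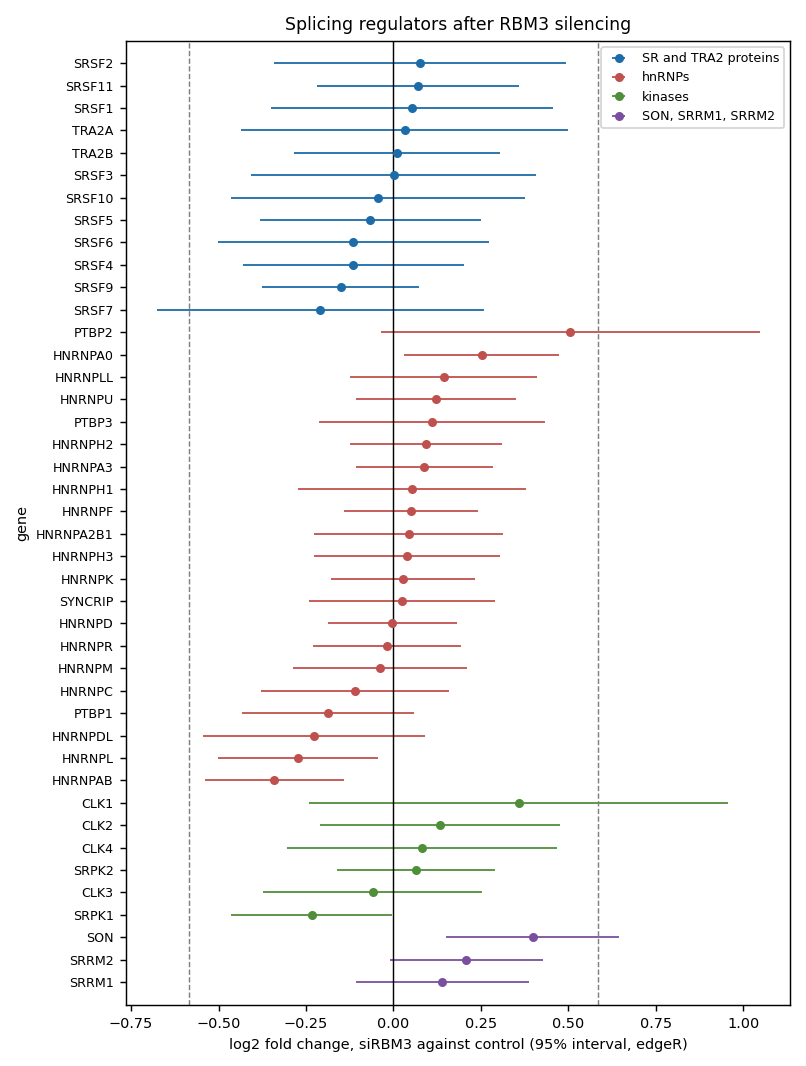
Log2 fold change of siRBM3 against control for the 42 genes that passed the filter, with 95% intervals from edgeR, sorted within each class. Dashed lines mark a 1.5-fold difference. All points lie between the dashed lines, and only the intervals of SRSF7, PTBP2, CLK1 and SON cross them.

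SR proteins did not shift in either direction. Of 12 tested, 6 lay above 0 and 6 below, the median log2 fold change was -0.02, and the extremes were SRSF7 at -0.21 and SRSF2 at 0.08. None reached an unadjusted p under 0.05, none had groups that did not overlap, and the smallest adjusted p by edgeR was 0.558 for SRSF9, which was lower by a log2 fold change of -0.15 with overlapping groups.

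SRSF9, a member with a short tail (chr12:120899475-120933749), measured 144, 122 and 132 CPM in control and 112, 123 and 123 CPM in siRBM3. Control replicate 3 lay below 2 of the siRBM3 libraries, so the groups overlapped, and the log2 fold change was -0.15 (SE 0.10, edgeR adjusted p = 0.558). It moved to -0.09 without control replicate 1 and to -0.21 without control replicate 3. Of its exon bases, 43.6% are also covered by GATC on the other strand, and the strand setting of the counting is not known here.

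SRSF7, which also takes part in the export of mRNA, measured 171, 299 and 211 CPM in control and 227, 192 and 170 CPM in siRBM3. Control replicate 3 was the highest of the 6 libraries, and the log2 fold change of -0.21 (SE 0.20, edgeR adjusted p = 0.711) turned to 0.04 without it. SRSF6, a regulator of many exons including its own poison exon, measured 225, 331 and 245 CPM against 287, 211 and 243 CPM, and its log2 fold change of -0.11 (SE 0.17, edgeR adjusted p = 0.822) turned to 0.07 without control replicate 3. For these genes the difference between groups was smaller than that between libraries of one group.

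SRSF4, one of the larger SR proteins, measured 167, 130 and 165 CPM in control and 120, 151 and 155 CPM in siRBM3. Here replicate 3 was the lowest library of both groups, the groups overlapped, and the log2 fold change was -0.11 (SE 0.14, edgeR adjusted p = 0.776). That estimate came to -0.01 without siRBM3 replicate 3 and to -0.22 without control replicate 3.

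The founding members were close to 0. SRSF1, which selects 5′ splice sites and is counted over exons of which 32.7% are shared with a second gene on the same strand, had a log2 fold change of 0.05 (95% interval -0.35 to 0.46). SRSF2, which is found in speckles and shares 27.7% of its exon bases with MFSD11 on the other strand, had 0.08 (-0.34 to 0.49), and SRSF3, the smallest SR protein, 0.00 (-0.41 to 0.41). SRSF5 was at -0.07, SRSF10 at -0.04 and SRSF11 at 0.07, and the paired activators TRA2A and TRA2B were at 0.03 and 0.01 on the same scale.

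SR proteins varied more between libraries of one group than hnRNPs did. The median SD of log2 CPM within groups was 0.23 in SR proteins, 0.13 in hnRNPs, 0.18 in kinases, 0.13 in the 3 speckle proteins and 0.21 over all genes tested, or 0.14 over genes with a mean of at least 50 CPM. The SR genes shared part of this spread. In control replicates 1, 3 and 5, their median log2 deviation from the mean of the 6 libraries was -0.13, 0.19 and -0.00, and in siRBM3 replicates 3, 4 and 5 it was 0.15, -0.15 and 0.01. Thus replicate 3 was high in both groups, and the mean over libraries was 0.02 ± 0.16 in control and 0.01 ± 0.15 in siRBM3 (SD, n = 3).

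The SR genes in which replicate 3 was the highest library of both groups were SRSF1, SRSF2, SRSF3, SRSF6, SRSF7, TRA2A and TRA2B. TRA2A, for example, measured 87.7, 130 and 97.1 CPM in control and 137, 85.3 and 99.0 CPM in siRBM3, so that both libraries numbered 3 stood above the other 4. SRSF3 measured 311, 481 and 376 CPM against 464, 362 and 342 CPM, again with replicate 3 highest in each group. These were 7 of 12 SR genes (58.3%), against 7 of 21 hnRNPs (33.3%), 3 of 6 kinases, 0 of 3 speckle proteins and 23.2% of all genes tested, or 30.8% of genes with a mean of at least 50 CPM. These counts are a description, and no test was made of the difference between classes.

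The hnRNP medians moved by less, from -0.09 to 0.02 over the 6 libraries. The libraries numbered 3 also had the largest share of mitochondrial counts within their group, at 2.86% and 9.40%, and siRBM3 replicate 3 was the deepest library. The part of these properties in the SR levels was not tested, and the labels do not say that a shared number marks a shared day or culture.

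**Figure D3:**
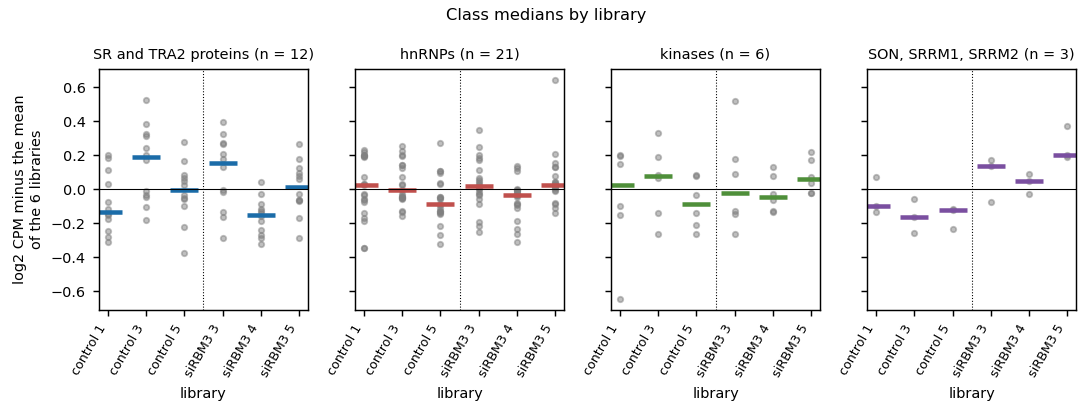
Deviation of log2 CPM from the mean of the 6 libraries, for each gene (grey points) and as the class median (coloured bars), by class and library. The SR medians are high in replicate 3 of both groups, at 0.19 and 0.15, the hnRNP medians stay between -0.09 and 0.02, and the medians of SON, SRRM1 and SRRM2 are below 0 in all control libraries and above 0 in all siRBM3 libraries. This last class holds 3 genes, and the groups of SRRM1 overlap.

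Among the hnRNPs, 13 of 21 lay above 0 and 8 below, with a median log2 fold change of 0.04 and a range from -0.34 to 0.51. Of these, 1 was higher and 2 were lower at an unadjusted edgeR p under 0.05, which is 14.3% of the class beside 13.1% of all genes.

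HNRNPAB, an A/B-type hnRNP that binds AU-rich RNA and single-stranded DNA (chr5:177631534-177638164), measured 211, 210 and 198 CPM in control and 161, 156 and 173 CPM in siRBM3. The highest siRBM3 library was still below the lowest control. The log2 fold change was -0.34 (SE 0.09, 95% interval -0.54 to -0.14), with an unadjusted edgeR p of 0.00409 that did not pass adjustment (0.176). Without each library in turn the log2 fold change stayed between -0.39 and -0.31.

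HNRNPL, which binds CA repeats (chr19:39327010-39342987), measured 157, 150 and 147 CPM in control and 116, 121 and 139 CPM in siRBM3. The groups did not overlap, but siRBM3 replicate 5 lay close to the control libraries, and the log2 fold change was -0.27 (SE 0.10, edgeR adjusted p = 0.303). Of its windows 13.0% also occurred elsewhere, mainly in the pseudogene HNRNPLP2. HNRNPLL, its paralogue with a role in lymphocytes, was at 0.14 (95% interval -0.12 to 0.41) with overlapping groups.

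HNRNPA0, an intronless gene whose protein binds AU-rich elements (chr5:137081340-137090052), measured 135, 127 and 128 CPM in control and 168, 155 and 140 CPM in siRBM3. All siRBM3 libraries were above all control libraries, with a log2 fold change of 0.25 (SE 0.10, edgeR adjusted p = 0.324). HNRNPA3 also had groups that did not overlap, at 200 to 202 CPM in control and 203 to 227 CPM in siRBM3, but its log2 fold change was only 0.09 (SE 0.09). Of its exon bases, 53.7% are covered by NFE2L2 on the other strand. HNRNPA2B1, the most abundant by reads of the 42 members tested, was at 806 ± 106 CPM in control and 831 ± 57 CPM in siRBM3 (SD, n = 3). Its log2 fold change was 0.04. HNRNPA1, listed at 0 counts, cannot be placed in that order.

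The 3 polypyrimidine tract binding proteins, which repress exons flanked by CU-rich sequence, gave estimates of different sign. PTBP1, the form of most non-neuronal cells, measured 381, 316 and 351 CPM in control and 282, 306 and 334 CPM in siRBM3, with a log2 fold change of -0.19 (SE 0.11, edgeR adjusted p = 0.509) that came to -0.12 without control replicate 1. PTBP2, whose mRNA PTBP1 is known to lower through exon skipping, measured 15.9, 20.3 and 16.2 CPM against 26, 16.3 and 32.0 CPM, with a log2 fold change of 0.51 (SE 0.24, edgeR adjusted p = 0.412). The groups overlapped for both genes, and for PTBP2 siRBM3 replicate 4 lay at the level of control. The PTBP2 estimate ran from 0.28 without siRBM3 replicate 5 to 0.73 without siRBM3 replicate 4. PTBP3 was at 0.11 (95% interval -0.21 to 0.43).

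HNRNPDL, a relative of HNRNPD, measured 265, 349 and 360 CPM in control and 307, 249 and 277 CPM in siRBM3. Control replicate 1 lay within the range of siRBM3, and the log2 fold change was -0.23 (SE 0.14, edgeR adjusted p = 0.530), or -0.15 without control replicate 5 and -0.36 without control replicate 1. HNRNPD itself, the AU-rich element binding protein AUF1, was among the steadiest members, at 248 ± 8 CPM in control and 248 ± 3 CPM in siRBM3 (SD, n = 3), with a log2 fold change of -0.00 (95% interval -0.19 to 0.18).

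The remaining hnRNPs had log2 fold changes between -0.11 and 0.12. HNRNPU, the scaffold attachment factor, was at 0.12 (95% interval -0.11 to 0.35) and HNRNPC, which measures the length of nascent transcripts, at -0.11 (-0.38 to 0.16), with 24.0% of its windows also elsewhere. The G-run binding proteins HNRNPF, HNRNPH1, HNRNPH2 and HNRNPH3 were at 0.05, 0.05, 0.09 and 0.04. HNRNPK, which binds C-rich sequence, was at 0.03, HNRNPM at -0.04, HNRNPR at -0.02 and SYNCRIP, its close relative, at 0.02. The whole 95% interval lay within the 1.5-fold limits for each of these. Of the exon bases, 27.1% in SYNCRIP and 15.8% in HNRNPH2 are shared with a second gene on the same strand. In HNRNPU 19.0% are covered by genes on the other strand.

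**Figure D4:**
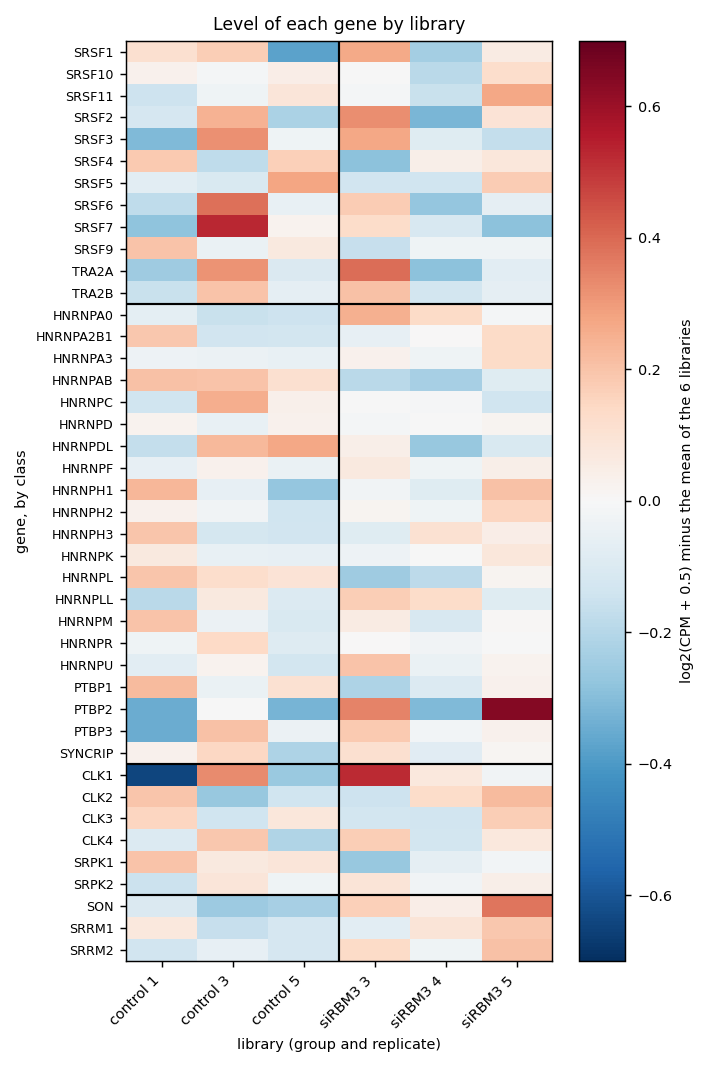
Log2(CPM + 0.5) of each of the 42 genes in each library, minus the mean of the 6 libraries, by class, with red above and blue below the mean. HNRNPAB, HNRNPL and SRPK1 are lower in all siRBM3 libraries than in all control libraries and SON is higher, and many SR genes are red in replicate 3 of both groups.

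The kinases were split. Of 6, 4 lay above 0 and 2 below, with a median log2 fold change of 0.07. SRPK1, the main cytoplasmic SR protein kinase (chr6:35800743-35889119), measured 115, 105 and 106 CPM in control and 83.1, 95.5 and 98.5 CPM in siRBM3. The groups did not overlap, and the log2 fold change was -0.23 (SE 0.10, edgeR adjusted p = 0.375). Of its exon bases, 28.1% are covered by LHFPL5 on the other strand. SRPK2 was at 0.06 (95% interval -0.16 to 0.29).

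CLK1, a dual-specificity kinase that is regulated through retention of its own introns, measured 13.8, 27.7 and 18.2 CPM in control and 31.6, 23.1 and 21.6 CPM in siRBM3. Replicate 3 was the highest library of both groups, the groups overlapped, and the log2 fold change of 0.36 (SE 0.26, edgeR adjusted p = 0.608) was 0.15 with control replicate 1 left out and 0.67 with control replicate 3 left out. CLK2 measured 61.3, 44.5 and 48.5 CPM against 48.4, 58.6 and 62.5 CPM, with a log2 fold change of 0.13 (SE 0.15, edgeR adjusted p = 0.758), which was 0.04 without control replicate 3 and 0.28 without control replicate 1. CLK3 was at -0.06 and CLK4 at 0.08, and the intervals of both included 0.

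All 3 speckle proteins had estimates above 0, as did 7325 of all 15099 genes tested. Their median log2 fold change of 0.21 is the value of SRRM2. SON, which is needed for the splicing of genes with weak splice sites, many of them of the cell cycle (chr21:34915344-34949787), measured 178, 160 and 163 CPM in control and 215, 198 and 247 CPM in siRBM3. Every siRBM3 library exceeded every control library. The log2 fold change was 0.40 (SE 0.11, 95% interval 0.15 to 0.65), with an unadjusted edgeR p of 0.00563 and an adjusted p of 0.197, and without each library in turn it stayed between 0.30 and 0.47. The adjusted p was 0.0854 by DESeq2, 0.0291 by edgeR with no filter on low counts and 0.0159 with the replicate number as a block, where the log2 fold change was 0.52, and it did not pass 0.01 in any of these. The block fit compares only libraries numbered 3 and 5, because number 1 is found only in control and number 4 only in siRBM3.

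SRRM2, the speckle scaffold that binds the active spliceosome (chr16:2802627-2822539), measured 447, 471 and 451 CPM in control and 537, 480 and 564 CPM in siRBM3. The groups did not overlap, and the log2 fold change was 0.21 (SE 0.10, edgeR adjusted p = 0.402). SRRM1, a coactivator that bridges SR proteins bound to enhancers (chr1:24958207-24999772), measured 132, 112 and 116 CPM against 120, 134 and 144 CPM. Its groups overlapped, with a log2 fold change of 0.14 (SE 0.11, edgeR adjusted p = 0.633) that was 0.08 without siRBM3 replicate 5 and 0.21 without control replicate 1, and 14.2% of its windows also occurred elsewhere. For SON, SRRM2, HNRNPA0, HNRNPA3, HNRNPAB, HNRNPL and SRPK1 the exact two-sided permutation test gave p = 0.1, the smallest possible here. Any gene whose groups do not overlap gives this value, so it adds nothing to the lack of overlap. Of all genes tested, 9.98% lay apart higher and 9.93% apart lower.

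**Figure D5:**
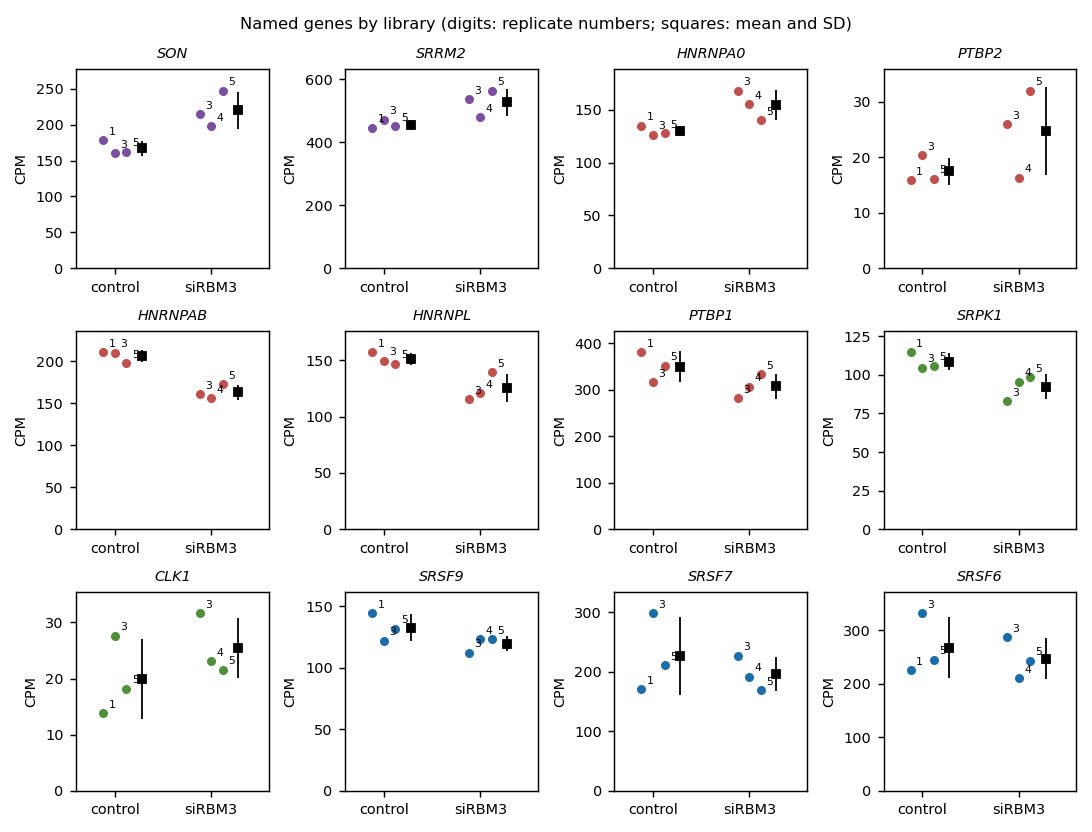
CPM in each library for 12 of the genes described, with replicate numbers beside the points and the mean and SD of 3 libraries as black squares with bars. The groups do not overlap for SON, SRRM2, HNRNPA0, HNRNPAB, HNRNPL and SRPK1, whereas replicate 3 stands high in both groups for CLK1 and SRSF6.

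Other parts of the splicing machinery were compared in the same fit, by the counts at an unadjusted edgeR p under 0.05 beside 6.56% higher and 6.58% lower over all genes. Of 6 proteins of the U1 particle and the 5′ splice site, 0 were below that limit and the median log2 fold change was -0.06, the smallest p being that of SNRNP70 at -0.29, followed by LUC7L at -0.17. Of 14 factors of the U2 particle and the 3′ splice site, 0 were higher and 2 were lower, SF3B3 at -0.29 and PHF5A at -0.36, with a median of -0.00. Of 7 Sm core proteins, only SNRPB was below the limit, with a log2 fold change of -0.39 (SE 0.09), at 214, 243 and 227 CPM in control and 182, 177 and 161 CPM in siRBM3. Its adjusted p was 0.158 by edgeR and 0.0317 by DESeq2, so that it was not called. SNRPD3 was next by p, at 0.15. The largest estimate was that of SNRPG, 0.69 (SE 0.44, edgeR adjusted p = 0.556). It measured 33.5, 61.5 and 44.8 CPM in control and 98.2, 98.2 and 29.05 CPM in siRBM3, so the groups overlapped.

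Of 10 proteins of the tri-snRNP, SNRNP40 alone was below the limit, at -0.29, followed by PRPF3 at -0.15. Of 9 tested SR-related proteins, 1 was higher, SCAF11 at 0.28, with RNPS1 next at -0.15, and SRSF12 was too low to test. Among 4 factors of nuclear import and further SR kinases 0 were below the limit, PRPF4B being at 0.20 and DYRK1A at 0.11.

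A list of 22 other splicing regulators, of which 19 were tested, held 3 that were higher and 4 that were lower at that limit. RBFOX2, which binds GCAUG, measured 262, 244 and 268 CPM in control and 364, 344 and 359 CPM in siRBM3, with a log2 fold change of 0.46 (SE 0.09), an edgeR adjusted p of 0.1004 and a DESeq2 adjusted p of 0.0016, below the fold limit of 1.5. QKI, a STAR-family regulator of splicing and circular RNA, measured 158, 248 and 205 CPM against 143, 141 and 117 CPM, with a log2 fold change of -0.61 (SE 0.16), an edgeR adjusted p of 0.197 and a DESeq2 adjusted p of 0.0414. The groups did not overlap for either gene, and neither was called by the limits used here. MBNL1 and HNRNPUL1 were the others that were higher, at 0.30 and 0.28, and PCBP1, KHSRP and TIAL1 the others that were lower, at -0.32, -0.28 and -0.26. TIA1 and HNRNPUL2 were listed at 0 counts in all libraries, as HNRNPA1 and SRSF8 were.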

How the data were processed

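The values deposited by the authors are raw counts of single-end reads of 75 bases per Ensembl gene, not normalized, from stranded poly(A) libraries of 6 T24 samples, 3 per group. Per the labels and the methods of the study, reads were aligned to GRCh37 with STAR, duplicates were marked with Picard and reads were counted with featureCounts. The labels name no annotation release, strand setting or handling of duplicates, and these are therefore not given in the sources used here. Groups and replicate numbers come from the sample titles.

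Of 63677 identifiers, 55665 matched GENCODE v44 lifted to GRCh37. Genes were kept by filterByExpr (minimum count 10, minimum total 15), scaled by TMM and fitted with edgeR 4.0.16 (quasi-likelihood, robust), with Benjamini-Hochberg adjustment over 15099 genes. The limits for a call, a fold of 1.5 and an FDR of 0.01, are those of the study, which used DESeq2. Intervals are at 95%. DESeq2 1.42.0, limma 3.58.1 (voom), R 4.3.3 and Python 3.11.15 were also used. The fits were tested on simulated data. No libraries of a group were alike within sampling noise (chi-square per degree of freedom 27.7 to 141).

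The members and lists were chosen with earlier results of these data known. Values in full are given for the members of smallest p (4 SR proteins, 6 hnRNPs, 3 kinases) and all 3 speckle proteins. In each further list the 2 of smallest p are named, most of them by log2 fold change only. TRA2A, SRSF3, HNRNPA2B1, HNRNPA3, HNRNPD, SNRPG and the retrocopies HNRNPA1L2 and HNRNPA1L3 were given more values after the results had been seen, as were all genes of a list below an unadjusted p of 0.05. The further lists were those of the U1 and U2 particles, the Sm core, the tri-snRNP, SR-related proteins, other regulators, SR kinases and import, nonsense-mediated decay and nuclear noncoding RNA.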

Additional observations from a re-analysis of the deposited data

How the results depend on the processing

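No member was called under any alternative run: RLE factors, library size only, no filter, a mean of at least 20 counts, limma-voom, DESeq2, the replicate number as a block, and each library left out. Over all genes 0 were called by edgeR, 279 without a filter, 336 with the block, 160 by DESeq2, at most 1 by edgeR without a library and 62 to 296 by DESeq2 without a library. The group difference in the block fit rests on the libraries numbered 3 and 5 alone, as numbers 1 and 4 each occur in a single group. The number of members higher at an unadjusted p under 0.05 was 2, and became 1 with library size only, 4 with no filter on low counts and 5 with the replicate block, while leaving out a library gave 1 to 3. The number lower was 3, and leaving out a library gave 1 to 3. The causes were not tested.

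The hnRNP median of 0.04 became -0.0112 with library size only, which moved the median of all genes from -0.01 to -0.06, and ran from -0.0102 to 0.0583 when a library was left out. The median of the 3 speckle proteins ran from 0.16 to 0.27, and that of SR proteins from -0.09 to 0.07. Without control replicate 3, SRSF7 turned to 0.0401 and SRSF6 to 0.0703, within leave-one-out ranges of -0.38 to 0.0401 and -0.24 to 0.0703.

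Same-numbered libraries correlated in their deviations from the group means at 0.53 (number 3) and 0.09 (number 5), while differently numbered ones ranged from -0.36 to 0.20. Deviations within a group cancel for each gene, so a positive value for 1 pair pushes others below 0. The contrast between the 2 kinds of pair is thus partly fixed by the centring. The labels give the numbers no shared day or culture, so the block is reported only as an alternative, and whether the libraries numbered 3 share a batch was not tested. With the block the edgeR adjusted p of SON was 0.0159 and that of PTBP2 0.0420. That fit takes no group difference from control replicate 1 or from siRBM3 replicate 4, where PTBP2 was at 16.3 CPM. Levels per kilobase and their order depend on the length used, and with the longest transcript the control medians were 51.9 for SR proteins, 49.8 for hnRNPs, 9.37 for kinases and 31.1 for speckle proteins. With 3 libraries a group, the intervals of SRSF7, PTBP2, CLK1 and SON did not exclude a 1.5-fold difference.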

Other observations

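Splicing factors of the SR and hnRNP families control many of their own mRNAs through exons that lead to nonsense-mediated decay, so the decay factors were read in the same fit. Of 8 factors, 0 were higher and 1 was lower at an unadjusted edgeR p under 0.05, with a median log2 fold change of -0.05, and this share of 12.5% is near the 13.1% of all genes tested. That factor was SMG5, an adaptor in the dephosphorylation of UPF1, which measured 173, 195 and 201 CPM in control and 141, 143 and 155 CPM in siRBM3. The groups did not overlap, as in the same direction for 9.93% of all genes, and the log2 fold change was -0.38 (SE 0.10), with an adjusted p of 0.175 by edgeR and 0.0557 by DESeq2. SMG1, the kinase of UPF1, was next at 0.30 (SE 0.14), with overlapping groups. UPF1, UPF2, UPF3A and UPF3B were between -0.11 and 0.05.

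The long noncoding RNAs MALAT1, which is held in nuclear speckles, and NEAT1, the scaffold of paraspeckles, both had estimates above 0. Of all 15099 genes tested, 7325 did. Both were also higher at an unadjusted edgeR p under 0.05 (0.0356 and 0.0298), where 6.56% of all genes were. MALAT1 measured 186, 161 and 159 CPM in control and 386, 168 and 253 CPM in siRBM3, with a log2 fold change of 0.68 (SE 0.27, edgeR adjusted p = 0.338). NEAT1 measured 288, 191.3 and 225 CPM against 391, 248 and 390 CPM, with a log2 fold change of 0.55 (SE 0.21, edgeR adjusted p = 0.322). In both cases siRBM3 replicate 4 lay below the highest control library, so the groups overlapped.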
